A study of Mus musculus with 3 samples.

Results

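The 9 genes described here encode enzymes that activate fatty acids, carry them into mitochondria and oxidise them. They are Acsl3, Acsl6 and Acsbg1 (activation), Cpt1a (mitochondrial entry), Acadl, Hadha, Hadhb and Acaa2 (mitochondrial oxidation) and Acaa1a (peroxisomal oxidation). They were chosen by name, with earlier results of these data known. They are 9 of the 16178 genes in the count table of 149 single cells, and all 9 had transcripts. The cells came from the subventricular zone, the stem cell niche of the adult mouse forebrain, of male C57BL/6J mice with no treatment given; the submitters give 8 mice, in one place for each experiment and in another for the 3 experiment days. After enrichment for GLAST, an astroglial surface transporter, and removal of myelin in an unspecified pair of the 3 experiments, single cells were sorted onto 3 plates, 1 per experiment, and the autofluorescence of each cell was recorded. SORT-seq reads the 3′ ends of transcripts and counts molecules by identifiers. The authors' 5 clusters and the autofluorescence values are the comparisons the data allow, since there is 1 genotype and no second treatment group.

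A free fatty acid becomes usable when an acyl-CoA synthetase joins it to coenzyme A. The acyl-CoA can then be built into lipids, or it enters the mitochondrion through the carnitine shuttle, where carnitine palmitoyltransferase sets the rate, and is shortened in the repeated steps of beta-oxidation. Peroxisomes shorten very long chains by a parallel set of enzymes. In the brain fatty acid oxidation is assigned mainly to astroglia, and in adult neural stem cells it has been tied to quiescence.

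The labels call all cells neural stem cells, and the markers describe a wider mixture. Cluster 3 (30 cells) had the highest level of 9 of 10 quiescent stem cell or astrocyte markers, summing to 36007 to 36907 CPM (a gene's share of the transcripts of a plate and cluster, as counts per 1e+06) per plate, against at most 3523 CPM elsewhere. These markers do not part quiescent stem cells from astrocytes, and Gfap, the tenth, had 4 transcripts there. Cluster 4 (6 cells) had the highest level of 8 of 8 markers of activated or dividing cells, cluster 1 (36 cells) of 7 of 7 microglial markers, and clusters 0 (42 cells) and 2 (35 cells) summed to 66120 to 75763 CPM of oligodendrocyte markers. The cells held 1208 to 37442 transcripts, with medians of 4192 in cluster 3, 17377 in cluster 4, 9530 in cluster 0, 8615 in cluster 2 and 3455 in cluster 1. Plate and cluster were nearly confounded: 25 of the 30 cells of cluster 3 lay on plate 1, 1 on plate 2 and 4 on plate 3, while plate 1 held 1 cell of cluster 0 and 3 cells of cluster 2. A sum over fewer than 3 cells is named as such below, and nothing in the labels ties a cell to a mouse.

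The start regions of 3 members are shown because Acsl3 and Acsbg1 are activation enzymes that were both high in cluster 3 but have unlike windows, and Hadhb was measured in every cluster. Each is the RefSeq sense strand of GRCm38.p6 from 250 bases before the annotated start to 50 bases after it, and capitals mark the CCAAT box or the GC box (GGGCGG) on either strand. Acsl3 lies at chr1:78657825-78707743, its window at chr1:78657575-78657874 on the plus strand. Acsbg1 lies at chr9:54604886-54661885, its window at chr9:54661836-54662135 on the minus strand. Hadhb lies at chr5:30155253-30184593, its window at chr5:30155003-30155302 on the plus strand.
Acsl3: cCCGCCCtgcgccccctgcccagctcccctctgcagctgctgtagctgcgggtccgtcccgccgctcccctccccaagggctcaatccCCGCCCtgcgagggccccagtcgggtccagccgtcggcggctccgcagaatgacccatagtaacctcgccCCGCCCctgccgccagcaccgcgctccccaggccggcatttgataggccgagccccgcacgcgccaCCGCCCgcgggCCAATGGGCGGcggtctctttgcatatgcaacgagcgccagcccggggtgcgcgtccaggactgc
Acsbg1: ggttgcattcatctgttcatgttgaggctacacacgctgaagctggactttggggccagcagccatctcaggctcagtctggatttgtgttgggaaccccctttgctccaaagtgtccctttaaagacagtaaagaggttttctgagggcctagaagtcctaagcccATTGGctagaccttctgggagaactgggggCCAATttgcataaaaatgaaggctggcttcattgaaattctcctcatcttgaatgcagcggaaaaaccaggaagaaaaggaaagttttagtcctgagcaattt
Hadhb: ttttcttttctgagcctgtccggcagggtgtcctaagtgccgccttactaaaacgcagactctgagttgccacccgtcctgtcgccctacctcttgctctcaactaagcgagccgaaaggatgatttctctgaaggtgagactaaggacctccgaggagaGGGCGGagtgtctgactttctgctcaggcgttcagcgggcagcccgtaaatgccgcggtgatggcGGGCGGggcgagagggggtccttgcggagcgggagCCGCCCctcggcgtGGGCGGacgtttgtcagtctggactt
The Acsl3 window had a GC content of 74.0%, with 33 CpG dinucleotides, 5 GC boxes and 1 CCAAT box. The Acsbg1 window had 47.0%, 2 CpG dinucleotides, no GC box and 2 CCAAT boxes, although both genes had their highest level in the same cluster. The median GC content of all 32851 windows of the same length was 52.7%. Windows were found for 8 members, 10 windows in all with 3 for Acsl6, and Acaa2 is named without one. A GC box was in 9 of these 10 windows against 35.7% of all windows, a CCAAT box in 6 of 10 against 37.4%, the nuclear receptor half-site AGGTCA in 2 of 10 (Acsl6 and Cpt1a) against 16.3%, and a TATA box, searched as TATAA, in 0 of 10 against 24.9%. Overlapping motifs were each counted, both strands were searched, and a match describes letters in the window. Hadha and Hadhb, the 2 subunits of 1 enzyme, start 273 bases apart in opposite directions, and their windows share 228 bases.

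In summed CPM, the activation genes differed more between clusters than the oxidation genes. Acsl3 gave 321 of the 505 activation transcripts of cluster 3, and Cpt1a is in neither sum. Summed over Acsl3, Acsl6 and Acsbg1, cluster 3 held 3212 CPM, against 268 in cluster 4, 266 in cluster 0, 314 in cluster 2 and 86.5 in cluster 1. The 5 oxidation genes Acaa2, Acadl, Acaa1a, Hadha and Hadhb summed to 681 CPM in cluster 3, against 268, 487, 409 and 370 CPM in the same order. In the sums of each plate, activation reached 3210 CPM on plate 1, 2603 on plate 3 and 6653 in the lone cell of plate 2, and no other sum passed 436 CPM. For oxidation, cluster 3 gave 696 and 628 CPM on plates 1 and 3, above every other sum of at least 3 cells, of which the highest were 517 and 450 CPM on plates 3 and 2 of cluster 0. The lone cell of cluster 3 on plate 2 gave 492 CPM, from 2 transcripts. Clusters were defined by the authors on these very transcripts, so differences between clusters are given as descriptions without a test.

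**Figure D1:**
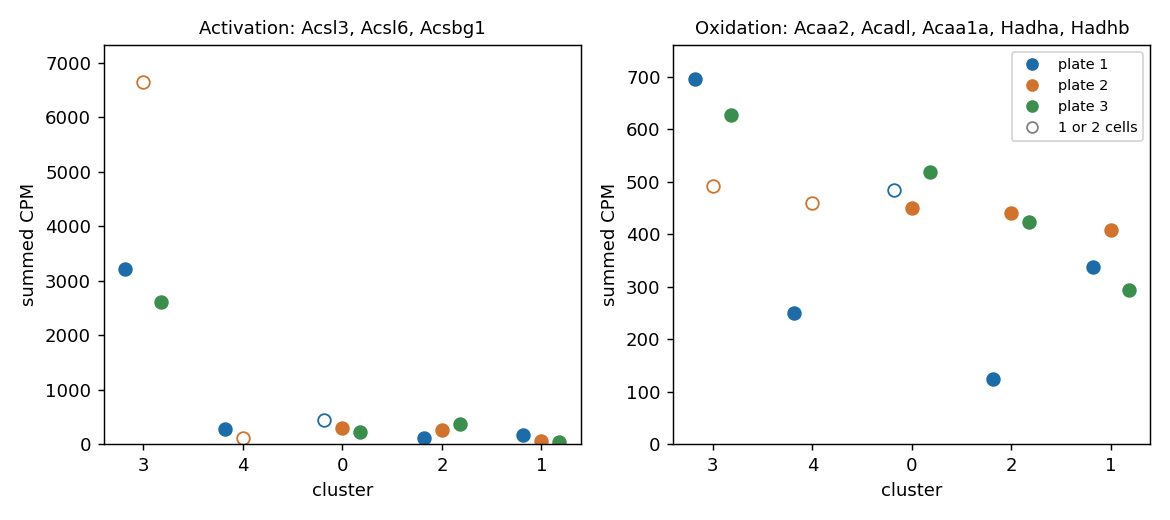
Summed level of the 3 activation genes (left) and of the 5 oxidation genes (right) in CPM, by cluster on the horizontal axis; each point is 1 plate, and open points are sums of 1 or 2 cells. Activation in cluster 3 lies at 2603 to 6653 CPM and at most 436 CPM elsewhere, while the oxidation sums of cluster 3 on plates 1 and 3 lie at 696 and 628 CPM and those of cluster 0 on plates 2 and 3 at 450 and 517 CPM.

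Acsl3, a long-chain acyl-CoA synthetase of the endoplasmic reticulum and lipid droplets, had 568 transcripts in all, 56.5% of them in cluster 3, which held 13.2% of all transcripts. In cluster 3 its level was 2062 CPM on plate 1, 1526 on plate 3 and 4191 in the lone cell of plate 2. In cluster 0 it was 288 CPM on plate 2, 212 on plate 3 and 436 in the lone cell of plate 1; in cluster 2 it was 123, 250 and 356 CPM on plates 1 to 3. Cluster 4 gave 206 CPM on plate 1 and 115 in 1 cell of plate 2, and cluster 1 gave 67.4, 40.7 and 41.9 CPM. Every cluster 3 value lay above every other value. The pooled level was 10.3-fold that of cluster 4, 8.01-fold that of cluster 0, 6.81-fold that of cluster 2 and 43.3-fold that of cluster 1, and the order of clusters 4, 0 and 2 was within the spread of their plates.

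Acsl6, a synthetase known in brain for activating polyunsaturated fatty acids, had 151 transcripts, 89.4% of them in cluster 3. Its level there was 819 CPM on plate 1, 808 on plate 3 and 2463 in the lone cell of plate 2. Elsewhere it lay between 0 and 67.4 CPM, with 4 transcripts in each of clusters 4, 0, 2 and 1. Plates 1 and 3 differed by less than their counting error, with Poisson intervals (95%) of 670 to 989 and 478 to 1275 CPM. Pooled folds were 21.7 over cluster 4, 96.2 over cluster 0, 76.7 over cluster 2 and 27.3 over cluster 1, each resting on 4 transcripts in the lower cluster.

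Acsbg1, the bubblegum-family synthetase for long and very long chains, had 55 transcripts and 89.1% of them in cluster 3. The level was 329 CPM on plate 1 and 269 on plate 3, and the lone cell of plate 2 had none. Cluster 4 had 3 transcripts, and clusters 0, 2 and 1 had 1 each, so their levels of 2.23 to 29.8 CPM pooled are close to the level of single molecules. Acsl6 and Acsbg1 had like profiles over the 11 sums of at least 3 cells (Pearson's r of log2(CPM + 10) 0.94), which share plates and cluster definitions.

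Cpt1a, the outer-membrane carnitine palmitoyltransferase that gates mitochondrial entry, was also highest in cluster 3. Its level there was 199 CPM on plate 1, 269 on plate 3 and 492 in the lone cell of plate 2, from 34 transcripts. Cluster 1 was the next, at 33.7, 40.7 and 41.9 CPM on the 3 plates, and cluster 0 gave 15.7 and 8.48 CPM on plates 2 and 3 and 0 in the lone cell of plate 1. Cluster 2 had 2 transcripts, both on plate 3. Cluster 4, the dividing-cell cluster, had the highest median depth of the clusters. Its 6 cells held 0 transcripts of Cpt1a, which allows up to 29.8 CPM (3 counts). Against that floor, the pooled level of cluster 3 (216 CPM, Poisson interval 150 to 302) was at least 7.27-fold that of cluster 4. It was 5.50-fold that of cluster 1 and 19.4-fold that of cluster 0, each resting on 5 transcripts in the lower cluster.

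Of the mitochondrial oxidation genes, Acaa2, a thiolase that releases acetyl-CoA in beta-oxidation, had the largest share of its transcripts in cluster 3. It had 21 of its 30 transcripts in cluster 3, at 145 CPM on plate 1 and 44.8 on plate 3, the latter from 1 transcript, and 246 in the lone cell of plate 2. Cluster 2 had 0 transcripts in 35 cells, which allows up to 8.40 CPM (3 counts). Against that floor, the pooled level of cluster 3 (134 CPM, Poisson interval 82.7 to 204) was at least 15.9-fold that of cluster 2. Cluster 4 had 3 transcripts (29.8 CPM), cluster 0 had 4, at 5.23 and 8.48 CPM on plates 2 and 3 and 48.4 in the lone cell of plate 1, and cluster 1 had 2, both on plate 2.

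Acadl, the long-chain acyl-CoA dehydrogenase of the first step, was 206 and 179 CPM on plates 1 and 3 in cluster 3 and absent from the lone cell of plate 2. In cluster 0 it was 105 and 123 CPM, in cluster 2 it was 82.2, 58.7 and 96.7 CPM, and in cluster 1 it was 202, 67.9 and 41.9 CPM. Plate 1 of cluster 1 thus reached the level of cluster 3. The pooled fold over cluster 0 was 1.73, but with plate in an edgeR fit the log2 difference was 0.01 ± 1.02 (SE). Over cluster 4, at 43.4 CPM in its 5 cells of plate 1, the pooled fold was 4.97.

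Hadha and Hadhb, which encode the alpha and beta subunits of the mitochondrial trifunctional protein, were spread over all clusters. Hadhb was 191 and 314 CPM on plates 1 and 3 in cluster 3, 189 and 212 on plates 2 and 3 in cluster 0, 0, 169 and 137 in cluster 2, 67.4, 122 and 168 in cluster 1 and 54.3 in cluster 4 on plate 1. Hadha was 76.5 and 44.8 CPM in cluster 3, 62.8 and 93.3 in cluster 0, 0, 95.5 and 107 in cluster 2, 33.7, 136 and 41.9 in cluster 1 and 97.8 in cluster 4. For Hadha cluster 3 overlapped with clusters 0, 2 and 1. For Hadhb it overlapped with cluster 0 and lay above the plates of clusters 2 and 1, and lone cells of plate 2 gave 246 CPM in cluster 3 and 344 CPM in cluster 4. The pooled fold of cluster 3 over cluster 0 was 1.07 for Hadhb and 0.921 for Hadha. With plate in the edgeR fit the log2 differences were 0.68 ± 0.78 (SE) for Hadhb and 0.41 ± 1.08 for Hadha, against a pooled ratio below 1 for Hadha, whose log2 difference was -1.34 without plate 1 and 3.40 without plate 3. Over the 11 sums the pair had a Pearson's r of 0.73.

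Acaa1a, a peroxisomal thiolase, was 76.5 and 44.8 CPM in cluster 3 on plates 1 and 3, against 89.0 and 80.6 CPM in cluster 0 and 41.1, 117 and 81.4 CPM in cluster 2. Clusters 2 and 1 (33.7 to 54.3 CPM) overlapped with cluster 3, and cluster 0 lay above it by less than the counting error of the 10 transcripts on plate 1. Cluster 4 gave 21.7 CPM on plate 1, and lone cells gave 0 CPM in cluster 3 (plate 2), 115 in cluster 4 (plate 2) and 242 in cluster 0 (plate 1). Acaa1a has a near-identical neighbour, Acaa1b, whose reads could be split or merged by the authors' counting, so its value is uncertain in every cluster.

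**Figure D2:**
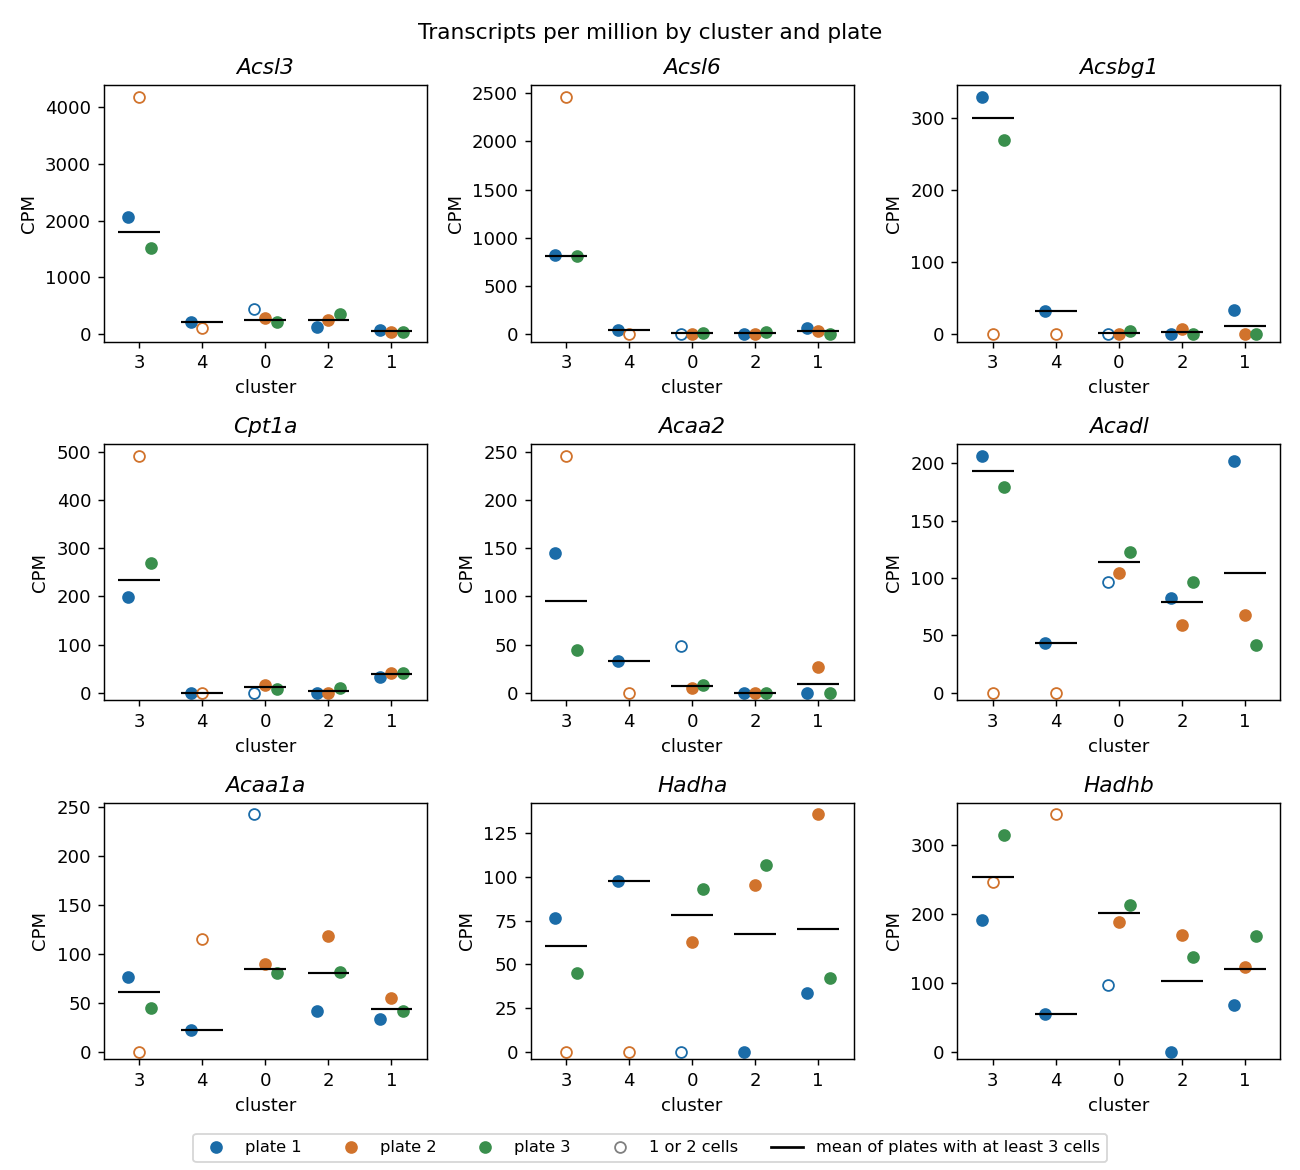
Level of each gene in CPM (vertical axis, its own scale in each panel, from 0) by cluster; points are plates, open points are sums of 1 or 2 cells, and the bar is the mean over plates with at least 3 cells. Acsl3, Acsl6, Acsbg1, Cpt1a and Acaa2 stand high in cluster 3, though Acaa2 is at 44.8 CPM on plate 3. Hadha and Hadhb in cluster 3 overlap with cluster 0.

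By the mean over plates, 7 of the 9 genes had their highest level in cluster 3, as did 18.3% of the 6133 genes with at least 30 transcripts. The exceptions were Acaa1a, highest in cluster 0, and Hadha, highest in cluster 4. For Acaa2, Acadl and Hadhb the lead rested on differences no larger than the spread between plates against at least 1 other cluster. Acaa2 had a mean of 95.1 ± 71.0 CPM (SD) over plates in cluster 3, against 32.6 CPM in cluster 4 on plate 1.

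Detection gave the same division once depth was set equal. At full depth Acsl3 was found in 96.7% of cells of cluster 3, 100% of cluster 4, 71.4% of cluster 0, 28 of 35 cells of cluster 2 and 16.7% of cluster 1, in cells of unlike depth. With every cell thinned to 1200 identifiers, which all 149 cells reached, the expected shares were 82.5%, 19.8%, 23.7%, 30.8% and 7.86%. Acsl6 went from 93.3% of cells in cluster 3 to 61.2%, and its thinned share elsewhere was at most 4.46%. Acsbg1 had a thinned share of 24.2% in cluster 3, Cpt1a 18.9% and Acaa2 14.1%, against at most 2.81%, 2.78% and 3.54% in the other clusters. Acadl (20.9% against 4.09% to 12.5%) and Hadhb (24.2% against at most 18.7%) were less far apart. Hadha (6.70%) and Acaa1a (8.73%) in cluster 3 lay below clusters 0 and 2. Cluster 3 had the highest share for 7 of 9 genes when thinned and for 4 of 9 at full depth.

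**Figure D3:**
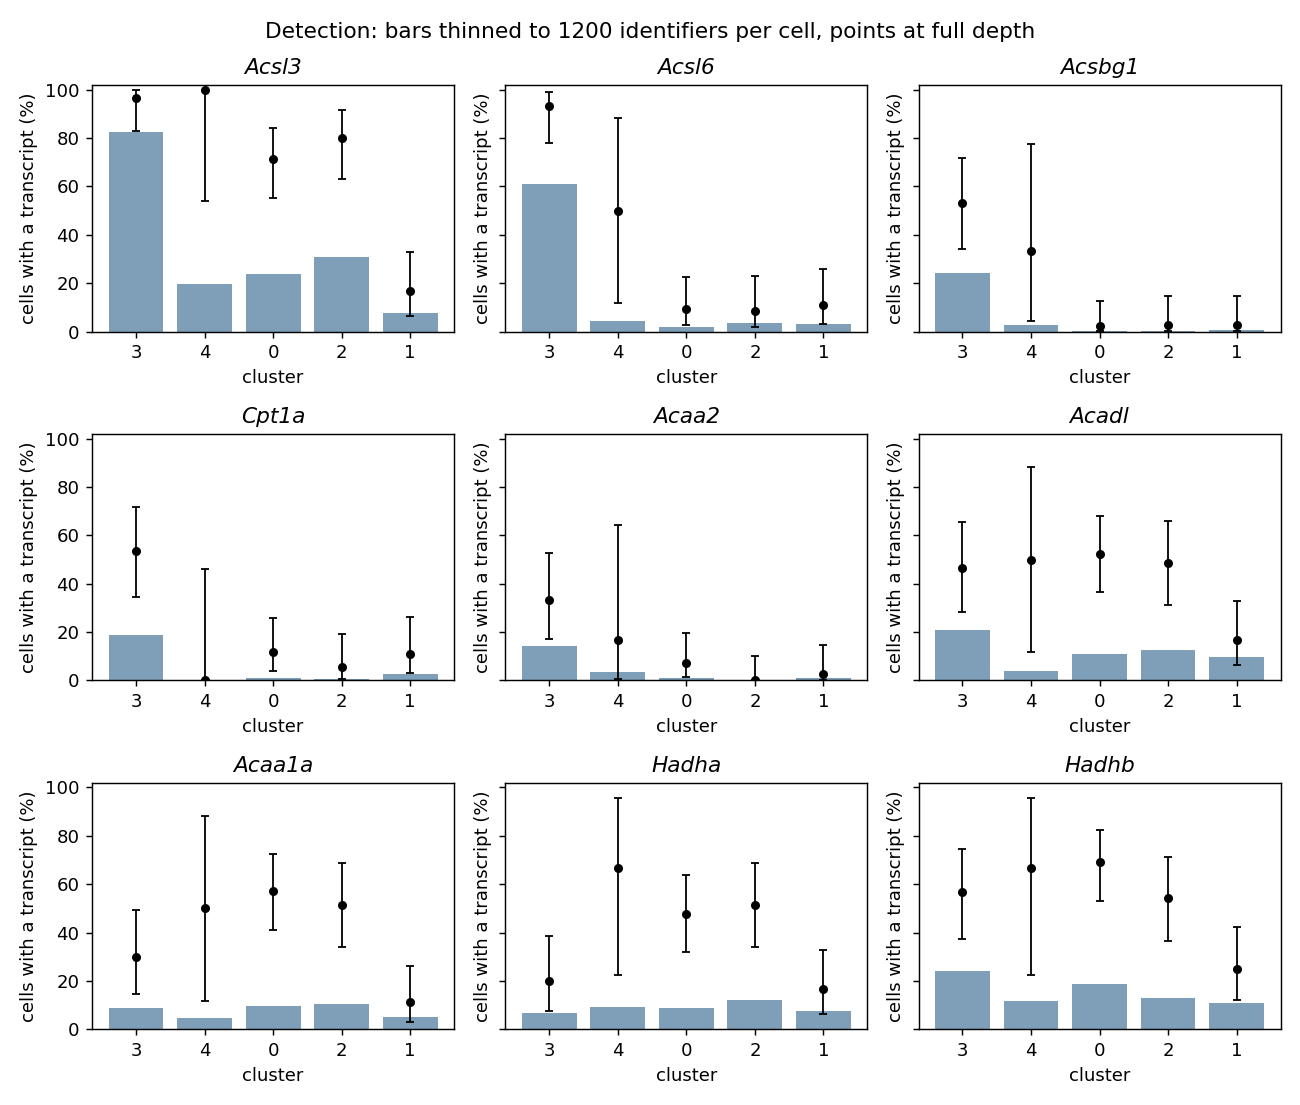
Share of cells with at least 1 transcript, in percent, by cluster; bars are expected shares after thinning to 1200 identifiers per cell, and points are shares at full depth with exact binomial intervals (95%). For Acsl3 the points of clusters 3, 4, 0 and 2 lie between 71.4% and 100%, while the bars part cluster 3 at 82.5% from the rest at 30.8% or less.

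Transcripts of the astroglial glutamate transporter Slc1a2 were found in 77.1% of cells of cluster 2, 88.1% of cluster 0 and 75.0% of cluster 1. Per 100 Slc1a2 transcripts, cluster 3 had 21.3 of Acsl3 (exact interval 18.8 to 24.1), cluster 0 had 121 (91.5 to 161) and cluster 2 had 153 (112 to 210). Clusters 4 (39.2, 22.1 to 66.9) and 1 (9.52, 3.37 to 21.9) had intervals that overlapped that of cluster 3. The part of RNA free in the suspension in these values was not tested. For Acsl6 the ratio was 8.97 in cluster 3 (7.46 to 10.7), and the other clusters, at 4.25 to 7.83, had intervals that overlapped it. The same held for Acsbg1, at 3.26 in cluster 3 and 1.06 to 5.88 elsewhere, and with 1 to 4 transcripts per cluster the intervals outside cluster 3 were wide. Acadl (54.3 in cluster 0 against 2.06) and Hadhb (93.6 against 2.19) had higher ratios in cluster 0 than in cluster 3.

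Within cluster 3 the cells varied. Acsl3 ranged from 0 to 53 transcripts with a median of 9 over the 30 cells, Acsl6 from 0 to 12 with a median of 3, and Acsbg1 from 0 to 8 with a median of 1. Cpt1a reached 5 transcripts, Acadl 4 and Hadhb 4, with medians of 1, 0 and 1. In the 25 cells of plate 1, Acsl3 was found in 24, Acsl6 in 23 and Acsbg1 in 14. All 23 cells with Acsl6 also had Acsl3, and all 14 cells with Acsbg1 had both. Since Acsl3 and Acsl6 were in nearly all cells, this overlap does not describe co-variation. Spearman's rho of the levels was 0.35 for Acsl3 and Acsl6, 0.25 for Acsl3 and Acsbg1 and -0.09 for Acsl6 and Acsbg1.

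The genes most like each member over the 11 sums, among 5329 genes, were ranked by Pearson's r of log2(CPM + 10), and the sums share plates. Acsl3 came closest to Fam184a (0.95), Cc2d2a (0.95) and Cdh11 (0.94), and Acsl6 to F3 (0.98), Slc38a3 (0.98) and Ntsr2 (0.97). Acsbg1 came closest to 6330403K07Rik (0.98), Fjx1 (0.98) and Slc7a10 (0.97), Cpt1a to Cyp2d22 (0.98), Cxcl14 (0.97) and Id2 (0.95), and Acaa2 to Farp1 (0.99), Cdc42ep4 (0.98) and Slc1a4 (0.95). For Acadl they were Gpr146 (0.91), Ppp1r3c (0.90) and Hapln1 (0.89), and for Acaa1a they were Efcab14 (0.93) and Mff (0.89). Hadha was nearest to Tmed2 (0.92), Adprh (0.91) and Srrm1 (0.89), and Hadhb to Ap3m1 (0.93), Arl5a (0.92) and Tnrc6b (0.91).

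Around the 9 genes, 94 of 101 further listed genes of fatty acid metabolism were in the table, and 57 had at least 30 transcripts. Of these, 25 (43.9%) were highest in cluster 3, in lists also chosen with earlier results of these data known. The carnitine shuttle contributed 3 of 3, led by Crot, the peroxisomal carnitine octanoyltransferase, at 103 CPM (mean over plates) in cluster 3 and at most 48 elsewhere, with Crat at 56.3 and Cpt1c at 49.2 CPM in cluster 3. Of the other activation genes 3 of 6 were highest there: Slc27a1, a fatty acid transport protein with synthetase activity, at 216 CPM and Slc27a4 at 90.2 CPM among them. Acsl1, the paralog of Acsl3 and Acsl6, went the other way, with 121 CPM in cluster 0, 101 in cluster 2 and 15 in cluster 3. Of the other mitochondrial oxidation genes 8 of 17 were highest in cluster 3, including Echs1, the short-chain enoyl-CoA hydratase, at 159 CPM, whereas Acad9 (165 CPM) was highest in cluster 1 and Hadh (144 CPM) in cluster 2. Of the peroxisomal genes it was 5 of 8, with Abcd3 at 174 CPM, while Hsd17b4 was highest in cluster 0 (143 CPM) and Scp2 in cluster 2 (239 CPM). For uptake and binding it was 1 of 5, where Fabp5 was 441 CPM in cluster 3, Fabp7 621 CPM in cluster 4 and Dbi 908 CPM in cluster 0. For synthesis it was 3 of 10: Elovl5 was highest in cluster 3 (784 CPM), Elovl6 in cluster 2 (330 CPM) and Scd2, a stearoyl-CoA desaturase, in cluster 0 (7475 CPM). For lipid droplets and lipolysis it was 1 of 4, Mgll, the monoacylglycerol lipase, at 531 CPM in cluster 3, with Plin3 (121 CPM) and Pnpla2 (82.7 CPM) highest in cluster 0. Of the genes of ketone metabolism, Oxct1 was highest in cluster 4 (544 CPM) and Bdh1, under 30 transcripts, in cluster 2 (38.3 CPM). Of the regulators it was 0 of 2, Ppard and Prkaa1, both highest in cluster 1, and Ppargc1a had 20 transcripts in all.

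Autofluorescence was compared by summing, on each plate, the cells above the plate's median and those at or below it, and testing the sums with edgeR's quasi-likelihood test with the plate as a block. None of the 6 members that passed the low-count filter differed at an adjusted p of 0.05, where 4.03% of the 3723 genes tested did. Acsl6 came nearest: its sums were 536 CPM (high) and 267 (low) on plate 1, 60.7 and 4.63 on plate 2 and 76.2 and 26.2 on plate 3. The high sum was above the low one on 3 of 3 plates, with a log2 difference of 1.55 ± 0.45 (SE) and an edgeR adjusted p of 0.0547. On plate 2 the high sum held the lone cell of cluster 3, with 10 transcripts of Acsl6, so that plate leans on 1 cell. The call for Acsl6 turned on the settings: the adjusted p was 0.0421 with RLE size factors and 0.0374 with no low-count filter, in a range of 0.0374 to 0.997 over 9 alternatives. Acsl3 had 0.43 ± 0.34 (edgeR adjusted p 0.739), with 1455 and 702 CPM on plate 1, 278 and 255 on plate 2 and 325 and 323 on plate 3. Acadl, Hadha, Acaa1a and Hadhb had log2 differences of 0.10, 0.06, -0.01 and -0.15, and the signs of Acadl, Acaa1a and Hadhb turned when 1 plate was left out.

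Acsbg1, Cpt1a and Acaa2 did not pass the filter. Cpt1a had 38 transcripts in the high sums and 8 in the low ones: 168 and 34.8 CPM on plate 1, 35.4 and 4.63 on plate 2 and 40.1 and 4.37 on plate 3. It was higher on 3 of 3 plates, as were 16.3% of the genes that passed the filter. With no low-count filter its log2 difference was 2.59 ± 0.71 (edgeR adjusted p 0.0146), in a run that called 307 of 13898 genes. Acsbg1 had 41 and 14 transcripts, also higher on 3 of 3 plates. The makeup of the sums moved in step with these values. On plate 1 the high sum drew 63.9% of its transcripts from cluster 3 and the low sum 29.5%, with a further 53.4% of the low sum from cluster 4. The 10 quiescent stem cell or astrocyte markers summed to 2256 to 25398 CPM in the high sums and 1783 to 11133 in the low ones, and 7 of the 9 tested were called higher; the 7 microglial markers (3159 to 10922 against 201 to 1547 CPM) were all called higher. The part of the makeup in the values of Acsl6 and Cpt1a was not tested.

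Of the 94 further pathway genes, 38 were tested over all clusters, 2 were called higher (3.89% of all genes tested were) and 0 lower, with a median log2 difference of 0.02 beside -0.04 over all genes tested. The first was Abcd2, a peroxisomal transporter of very long chain acyl-CoA, at 200 and 52.2 CPM in the high and low sums of plate 1, 70.8 and 4.63 on plate 2 and 72.2 and 8.73 on plate 3 (log2 difference 2.60, edgeR adjusted p 0.00575). Abcd2 had similar levels in clusters 1 and 3 (212 and 204 CPM pooled) and at most 49.6 CPM elsewhere. The second was Mgll, at 608 and 92.8 CPM on plate 1, 157 and 46.3 on plate 2 and 80.2 and 61.1 on plate 3 (1.72, edgeR adjusted p 0.0258). Without plate 2 neither was called, at log2 differences of 2.34 for Abcd2 (edgeR adjusted p 0.167) and 1.69 for Mgll (0.573). Mgll was also not called without plate 1 (1.09, edgeR adjusted p 0.249), between the outer 3-quantiles (1.97, 0.148) and with DESeq2 (1.71, 0.0688). The adjusted p ran from 0.000938 to 0.592 for Abcd2 and from 0.00631 to 0.712 for Mgll over 9 alternatives each.

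With cluster 1 left out, so that microglia-like cells no longer filled the high side, none of the 6 members tested was called, where 0.378% of 2913 genes were. Acsl6 had a log2 difference of 1.73 ± 0.48 (edgeR adjusted p 0.159) and Acsl3 of 0.96 ± 0.40 (edgeR adjusted p 0.623). Both were higher on 3 of 3 plates, beside 12.6% of genes. The high sum of plate 2 again held the lone cell of cluster 3, with 10 transcripts of Acsl6 and 17 of Acsl3. On plate 1 the high sum still drew 84.5% of its transcripts from cluster 3 and the low sum 24.0%. Acaa1a had 0.76, Acadl 0.16, Hadhb -0.02 and Hadha -0.04, and of 31 further pathway genes 0 were called.

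Splitting at the median of each plate and cluster matched the clusters in cell number between the sides, apart from odd cells, but not in transcripts. On plate 1 cluster 3 gave 55.9% of the high sum and 38.0% of the low one, and cluster 4 gave 24.6% and 42.5%. On plate 2 cluster 2 gave 43.3% and 22.5%, while on plate 3 cluster 3 gave 4.65% and 4.68%. The part of these shares in the members' values was not tested. None of the 5 members tested was called, where 0.0879% of 3412 genes were. Acsl3 had 0.28, with 1321 (high) and 785 CPM (low) on plate 1, 194 and 273 on plate 2 and 346 and 290 on plate 3, so the plates did not point one way, and without plate 1 the difference was -0.09. Acsl6, below the filter here, was 475 and 337 CPM on plate 1, 4.51 and 11.2 on plate 2 and 51.4 and 53.6 on plate 3. Cpt1a was 140 and 52.4, 9.03 and 22.3, and 20.6 and 26.8 CPM in the same order, so that the high sum was the higher one on 1 of 3 plates for each of these 2 genes. With no low-count filter the log2 differences were 0.37 ± 0.42 for Acsl6 and 0.40 ± 0.64 for Cpt1a. Acsbg1, also below the filter, was 238 and 97.2 CPM on plate 1, 4.51 and 0 on plate 2 and 20.6 and 5.36 on plate 3, from 41 and 14 transcripts. Acaa2 was 97.8 and 59.8, 9.03 and 5.58, and 10.3 and 0 CPM, from 19 and 9 transcripts. Both were higher on 3 of 3 plates, as were 13.7% of the genes that passed the filter. On plate 2 this rests on single molecules: Acsbg1 had 1 transcript in cluster 2, and Acaa2 had 1 in cluster 0 and 2 in cluster 1. Their log2 differences with no low-count filter were 1.59 ± 0.65 for Acsbg1 and 1.14 ± 0.87 for Acaa2 (edgeR adjusted p 0.998 for each).

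Of the 5 members that passed the filter, Acaa1a and Hadhb had the largest differences within clusters, in opposite directions. Acaa1a was 62.9 and 37.4 CPM on plate 1, 131 and 44.6 on plate 2 and 92.5 and 53.6 on plate 3, a log2 difference of 1.09 ± 0.45 (edgeR adjusted p 0.581). It was higher on 3 of 3 plates, as were 13.7% of genes. Hadhb was 62.9 and 172, 153 and 190, and 178 and 193 CPM, with -0.45 on the log2 scale, lower on 3 of 3 plates, as were 15.9% of genes. Hadha, the other subunit, had 0.31 and Acadl 0.16. Of 35 further pathway genes 0 were called, with a median of 0.14 beside 0.01 over all genes. The microglial markers summed to 993 to 4961 CPM in these high sums and 2917 to 7764 in the low ones, and 2 of 7 were called lower; their part in the members' values was not tested.

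**Figure D4:**
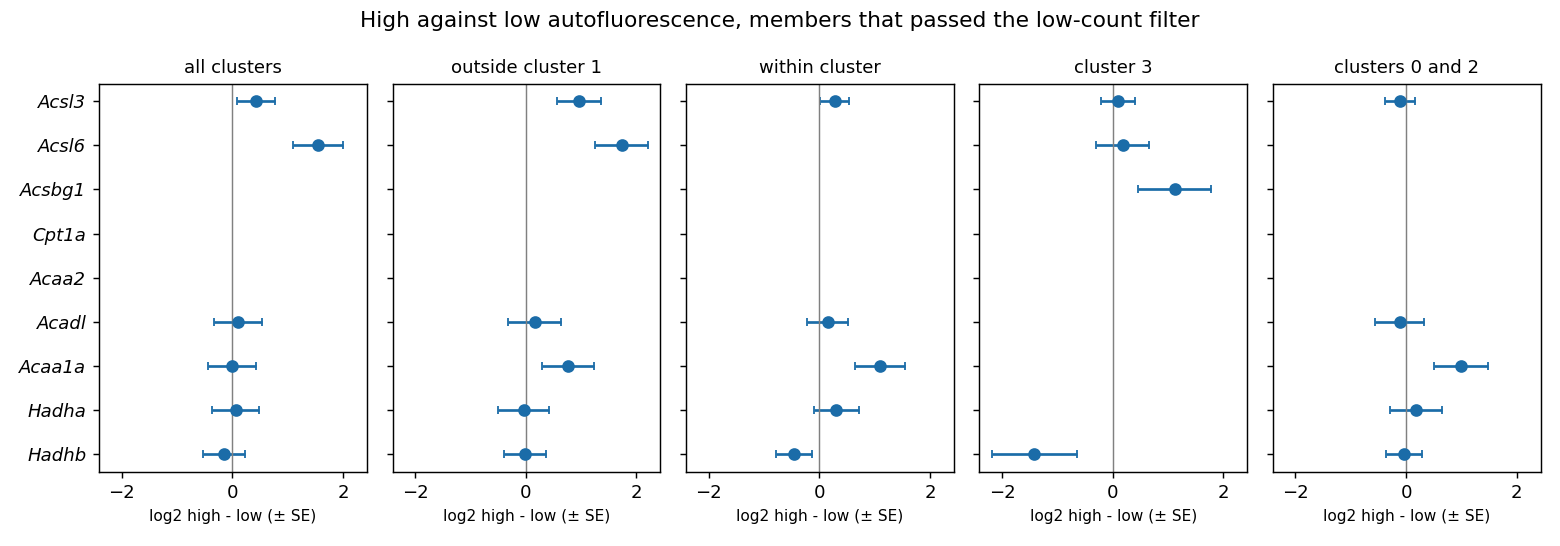
Log2 difference of high minus low autofluorescence (horizontal axis, ± SE) for the members that passed the low-count filter in each of 5 comparisons; a member with no point did not pass. Acsl6 lies at 1.55 over all clusters and 1.73 outside cluster 1 but at 0.18 within cluster 3, and no value passed an adjusted p of 0.05.

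In cluster 3 alone, plates 1 and 3 could be split, into 12 and 13 cells and into 2 and 2 cells. None of the 4 members tested was called, nor was any of the 437 genes (0.0%) by edgeR or by DESeq2; 7 genes had an unadjusted p under 0.05 with edgeR and 1 with DESeq2. Acsl6 was 813 (high) and 827 CPM (low) on plate 1 and 958 and 573 on plate 3, and Acsl3 was 2226 and 1811 on plate 1 and 1474 and 1604 on plate 3, with log2 differences of 0.18 and 0.10. Acsbg1 was higher in the high sum on both plates, 413 against 197 CPM and 368 against 115, a log2 difference of 1.12 ± 0.66 (edgeR adjusted p 0.995). Hadhb was lower on both, 87.5 against 354 and 295 against 344 CPM, at -1.42 ± 0.77 (edgeR adjusted p 0.995). Cpt1a, below the filter, was 250 and 118 CPM on plate 1 and 147 and 458 on plate 3. Of 7 further pathway genes 0 were called.

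Over the 25 cells of cluster 3 on plate 1, Spearman's rho between autofluorescence and level was 0.54 for Acadl, 0.45 for Acsbg1, 0.21 for Hadha, 0.13 for Acaa2, 0.12 for Cpt1a, 0.12 for Acsl3, 0.06 for Acsl6, -0.04 for Acaa1a and -0.18 for Hadhb. These cells share a library, and the number of transcripts per cell had a rho of 0.42 with autofluorescence, and its part in these values was not tested. Pearson's r of log2(CPM + 10) over the same cells was 0.47 for Acsl3, against the rho of 0.12, and 0.05 for Hadhb, where the sign turned. Elsewhere Acadl had a rho of 0.45 and 0.03 in cluster 0 of plates 2 and 3, of -0.09 and 0.06 in cluster 2 of the same plates, and of -0.46, 0.03 and -0.41 in cluster 1 of plates 1 to 3. The values describe cells and carry no test.

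**Figure D5:**
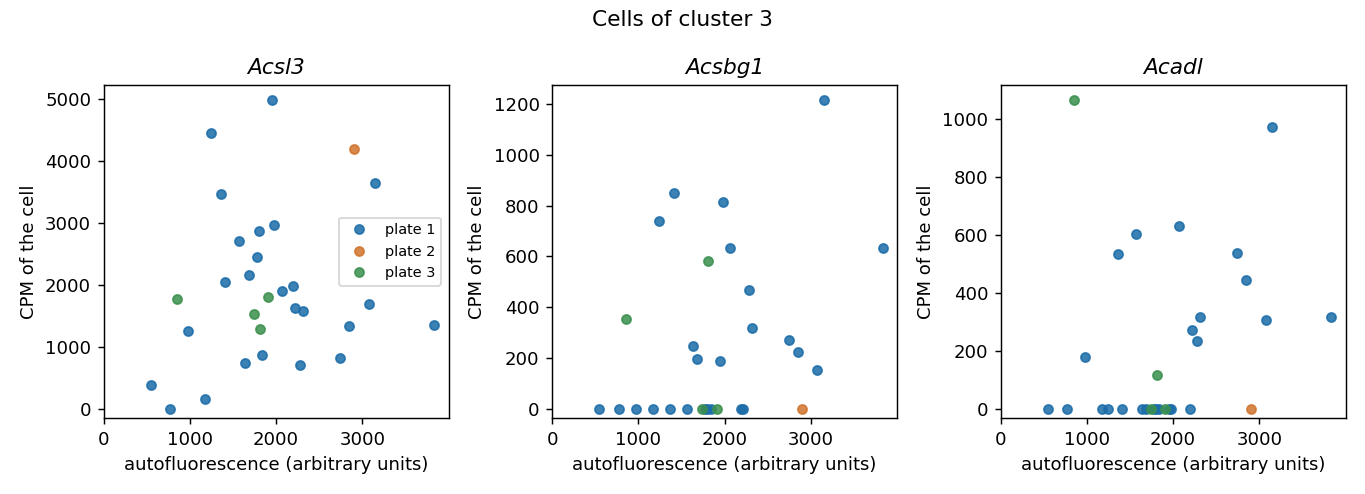
Level of Acsl3, Acsbg1 and Acadl in each of the 30 cells of cluster 3 (CPM of the cell) against its autofluorescence in arbitrary units; colours are plates. Acsl3 has a rank correlation of 0.12 and a Pearson's r of 0.47 with autofluorescence on plate 1, and many cells have no transcript of Acsbg1 or Acadl.

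In clusters 0 and 2, split on plates 2 and 3, none of the 5 members tested was called, where 0.0319% of 3138 genes were. Acaa1a had a log2 difference of 0.99 ± 0.50 (edgeR adjusted p 0.791), from 51 transcripts in the high sums and 17 in the low ones, and was higher on both plates. Hadha had 0.18, Hadhb -0.05, Acsl3 -0.11 and Acadl -0.12. In cluster 1 no member passed the low-count filter. There, 0 of 210 genes (0.0%) were called by edgeR or DESeq2, with 2 and 0 under an unadjusted p of 0.05; Hadhb, the member with the most transcripts, had 2 in the high sums and 13 in the low ones.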

How the data were processed

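Single cells of 3 plates were measured by SORT-seq. Per the submitters' processing notes, BWA 0.7.15, R 4.2.0 and Seurat 4.1.1 and the builds mm10 and hg19 were used, with no role given. The deposited values are estimated counts of transcripts per gene and well, which the authors corrected for identifier collisions. Undoing that correction with 4096 identifiers gave whole numbers for 100% of 349688 values above 0 (tolerance 1e-06). Of 235 wells the authors kept 149 cells, and their clusters were used as given, as was autofluorescence, deposited as an intensity in arbitrary units with no normalization stated; 86 wells were left out. Plates were matched to libraries by the last digit of the library name, and 14 per-cell columns were not used. No source used here says how doublets were treated, and no caller was run.

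CPM were computed from sums of transcripts over the cells of a cluster, or of an autofluorescence class, on 1 plate. Cluster levels used sums of at least 3 cells. High and low classes were tested with edgeR 4.0.16 on rounded sums (TMM, filterByExpr, plate as block, Benjamini-Hochberg at 0.05 over all genes tested). Both sums of a plate hold cells of that plate, which is where the pairing comes from. Alternatives were DESeq2 1.42.0, RLE factors, no filter, no block, recovered identifiers, brightest against dimmest 3-quantile, a joint block, thinned cells and each plate left out. Plates are separate experiments. With plate as the block, p-values set the high-minus-low difference against a residual variance that was moderated across genes. With 2 or 3 plates they rest largely on variance shared between genes, and less on 1 gene's own variation from plate to plate. Poisson and binomial intervals (95%) and floors of 3 counts cover counting error only. The 9 members and the gene lists were chosen with earlier results of these data known. All 9 members are named, with other listed genes that passed the threshold, the 3 most abundant of each list, and the 3 genes most like each member; 2 genes that this rule names are not reported here. Levels of different genes do not depend on transcript length, because 1 molecule gives 1 count. Other differences between genes in capture or read assignment were not checked, also for the sums over genes. RefSeq promoter windows are of GRCm38.p6.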

Additional observations from a re-analysis of the deposited data

Results flagged for a closer look

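In the 86 wells that the authors left out, Acsl3 had 9 transcripts in 8 wells (9.30% of wells), or 314 CPM of 28702 transcripts. It is listed because it had more than 3 transcripts there. The level lay within the range of its pooled levels in the kept cells, from 47.2 CPM in cluster 1 to 2041 CPM in cluster 3. The median left-out well held 266 transcripts. Every other member had at most 3 transcripts in these wells.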

How the results depend on the processing

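Of 198 alternative values for 26 member results, 177 kept their direction and their side of the threshold, 2 (Acsl6 over all clusters) passed it and 19 reversed, none of them called. Cpt1a, which did not pass the filter and is outside this tally, was called over all clusters with no filter. Cluster 3 held the highest level of 6 members with at least 10 cells per sum and 7 under the other alternatives, and the highest detection of 4 without thinning.

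Counts of genes called moved as follows. Over all clusters (150) they were 307 with no filter and 39 to 180 with 1 plate left out. Within cluster (3) they were 0 with DESeq2, 20 with RLE factors, 1 with the outer 3-quantiles, 0 with plate and cluster as joint block, 0 with thinned cells and 0 to 23 with 1 plate left out. Outside cluster 1 (11) they were 7 with RLE factors, 74 with no filter, 0 with the outer 3-quantiles and 0 to 7 with 1 plate left out. In clusters 0 and 2 (1) they were 0 with DESeq2, 0 with no filter and 4 with the outer 3-quantiles. With no replicate block, edgeR called 0 genes over all clusters, within cluster, outside cluster 1 and in clusters 0 and 2, with 207, 40, 67 and 174 under an unadjusted p of 0.05; the calls of Abcd2 (2.44) and Mgll (2.12) were lost there. The zero counts of DESeq2 came with 74 and 13 genes under an unadjusted p of 0.05. The cause was not tested.

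Reversed log2 differences over all clusters were -0.38 for Acsl3 with the outer 3-quantiles and, for Acaa1a, 0.0132 with DESeq2 and 0.00529 with RLE factors. With 1 plate left out they ran from -0.36 to 0.55 for Acadl, from -0.24 to 0.20 for Acaa1a and from -0.46 to 0.15 for Hadhb. Within cluster the same range was -0.0853 to 0.59 for Acsl3 and -0.0585 to 0.58 for Acadl. Outside cluster 1 it was -0.52 to 0.85 for Acadl, -0.17 to 0.18 for Hadha and -0.0254 to 0.0136 for Hadhb. There Hadha was 0.00331 with DESeq2 and 0.0286 with no filter, and Hadhb was 0.00479 with DESeq2, 0.00203 with RLE factors and 0.0470 with no filter. In clusters 0 and 2 Acsl3 was 0.40 with the outer 3-quantiles.

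The 3-quantile split and the omission of a plate in cluster 3, and the omission of a plate in clusters 0 and 2, could not be run since 1 plate would remain; the cluster fit with at least 10 cells left no residual degrees of freedom. At this depth 6 of 9 members had at most 5 transcripts in any cell of cluster 3, and Acsbg1, Cpt1a and Acaa2 were too low for most tests.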
